A study of Homo sapiens with 6 samples.

Results

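SNAI1, SNAI2, TWIST1, TWIST2, ZEB1 and ZEB2 encode the SNAIL, TWIST and ZEB transcription factors, and their transcripts were examined in WM164 melanoma cells carrying either an empty vector (EV) or an expression vector for HDAC8. The 6 genes were taken by their symbols from a table of 60504 genes, and all 6 were found in it. SNAI2 was the only one of them that passed the test, and it fell from 764.5 ± 85.6 (SD, n = 3) normalized counts in the EV libraries to 167.9 ± 79.8 (SD, n = 3) in the libraries labelled HDAC8, which was 4.56-fold lower. SNAI1, TWIST1, ZEB1 and ZEB2 did not pass the test, and TWIST2 was near 0 throughout. Many epithelial genes are known to be repressed by these factors in carcinoma cells. Of 24 epithelial genes with an adjusted p, 4 rose (16.7%, against 5.57% of all genes). These were the junction genes of desmoplakin, desmocollin 2, desmoglein 2 and claudin 4. The other 20 were not called, among them E-cadherin, which was low and lower in every HDAC8 library.

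WM164 is a human melanoma cell line with the BRAFV600E mutation. Both groups were WM164 cells and differed by the plasmid they carried, EV or HDAC8, with 3 RNA-seq libraries a group numbered as biological replicates in the labels. According to the methods of the study, plasmids were introduced with a lipid reagent and carrying cells were kept under hygromycin; whether each line was 1 clone or a pool was not stated in the sources used here. Nothing further was said about separate cultures, so p-values measure the spread between these libraries, which may be technical.

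SNAIL proteins are zinc finger factors, ZEB proteins carry zinc finger clusters on both sides of a homeodomain, and TWIST proteins are basic helix-loop-helix factors that bind DNA as dimers. All of them recognise variants of a short motif called the E-box, and in epithelial cells they repress adhesion genes and drive epithelial-mesenchymal transition. Melanocytes descend from the neural crest, where several of these genes act during migration; normal melanocytes and differentiated melanoma cells are known to express SNAI2 and ZEB2, and less differentiated, invasive melanoma cells TWIST1 and ZEB1.

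The gene carried by the vector was read first. HDAC8, a class I histone deacetylase, had 383.8, 404.4 and 478.8 normalized counts in EV 1, EV 2 and EV 3 and 484.8, 445.5 and 473.7 in HDAC8 1, HDAC8 2 and HDAC8 3. The groups overlapped and a rise of the transcript was not detectable (log2 fold change 0.15, SE 0.28, DESeq2 adjusted p = 0.856), so higher and lower refer below to the HDAC8 label relative to the EV label. The study probed HDAC8 protein by immunoblot in melanoma cells with either plasmid, and protein was not measured in these libraries. Total counts ran from 34741083 to 42041462 a library and overlapped between groups. Mitochondrially encoded genes took 9.66% to 12.8% of counts in EV libraries and 4.46% to 7.94% in HDAC8 libraries. HDAC8 1 had the lowest share, and its counts differed most from its group. Pairs of libraries were compared by the chi-square per degree of freedom of their counts. It was 153.4 for HDAC8 1 with HDAC8 2, 101.7 with HDAC8 3, and 25.99 between HDAC8 2 and HDAC8 3. Pairs of EV libraries had 39 to 47.32. The line's own lineage genes were present, with summed normalized counts of the 11 melanocytic markers from 248657.1 to 332539.1 in EV and from 142032.1 to 186917.2 in HDAC8 libraries. Marker lists of other cell types were mixed. The fibroblast gene DCN and the endothelial gene CDH5 had no count in any library, and the leukocyte gene PTPRC had at most 2.6 normalized counts, but LUM, on the fibroblast list, had 2205 to 2662.4 in EV and 1054.3 to 2157.9 in HDAC8, and the endothelial gene VWF had 89.7 to 208.6. The 7 fibroblast markers summed to 2535.6 to 2982.2 in EV and 1477.6 to 2423.1 in HDAC8, and the part of these genes in the results below was not tested.

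To determine which of the 6 factors differed, the table was tested as a whole. A call required a DESeq2 adjusted p under 0.05 together with a log2 fold change of 0.58 or more in either direction. By this rule 11.0% of the 21021 genes with an adjusted p were called, 5.44% lower and 5.57% higher in HDAC8. Of the 6 factors, 1 was called lower, 0 were called higher, 4 were not called and 1, TWIST2, was not tested because its total count was under 10. edgeR and limma-voom also called 1 lower and 0 higher. Over all genes, edgeR called 1045 lower and 1080 higher, and limma-voom 1083 lower and 994 higher. At an unadjusted DESeq2 p under 0.05 there were 2 lower, SNAI2 and ZEB2, and 0 higher. The share of all genes at that unadjusted p was not taken, here or for the lists below. The median log2 fold change of the 5 tested was 0.14, against -0.003 over all genes with an adjusted p.

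**Figure D1:**
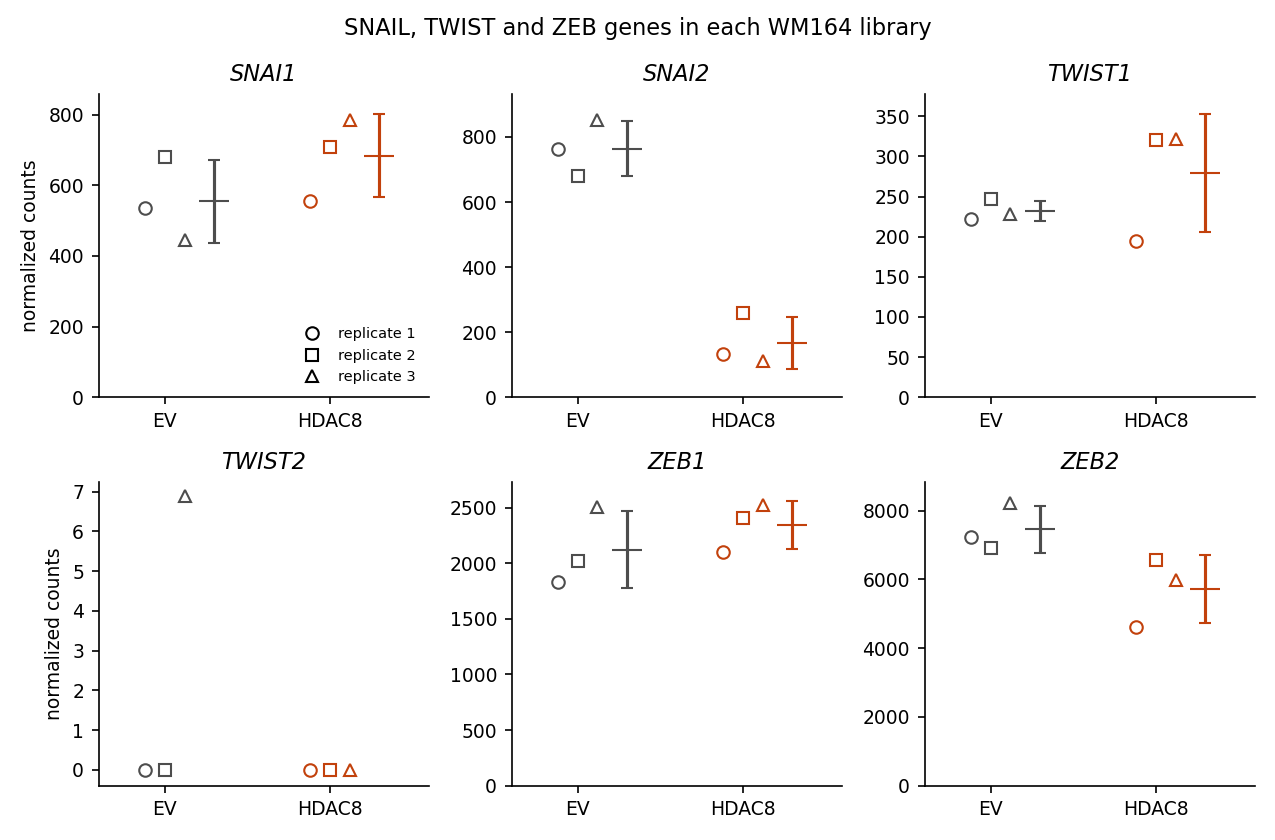
Normalized counts (vertical axes, each starting at or just under 0) of the 6 factor genes in each library, with EV in grey and HDAC8 in orange, marker shapes for replicate numbers, and bars for mean ± SD except for TWIST2. The 3 HDAC8 libraries sit between 111.1 and 259.1 for SNAI2, all under the EV libraries, and HDAC8 1 is the lowest library for ZEB2 and TWIST1.

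SNAI2 (SLUG; ENSG00000019549) lies on chromosome 8, at 48917598 to 48921740 of GRCh38, on the minus strand. It is a repressor needed for normal development of melanocytes. EV 1, EV 2 and EV 3 held 762.3, 679.9 and 851.1 normalized counts, and HDAC8 1, HDAC8 2 and HDAC8 3 held 133.4, 259.1 and 111.1. All HDAC8 libraries were thus lower than all EV libraries, with HDAC8 2 the highest of its group. On the log2 scale SNAI2 fell by 2.19 (SE 0.36, adjusted p = 4.16e-08 by DESeq2), and the 95% interval of the HDAC8 to EV ratio ran from 0.136 to 0.356. Of 14451 genes with a mean of at least 50 normalized counts, 166, or 1.15%, had a lower log2 fold change. A fit without mitochondrially encoded genes gave -2.19 as well. The summed melanocytic markers, given above, were also lower in all HDAC8 libraries, and their part in the fall of SNAI2 was not tested. In bulk RNA, fewer cells with the transcript and less transcript per cell cannot be told apart.

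SNAI1 (SNAIL; ENSG00000124216; chromosome 20, 49982980 to 49988886, plus strand), the closest relative of SNAI2 among the 6 and a direct repressor of E-cadherin, did not follow it. EV 1, EV 2 and EV 3 held 535.8, 679.9 and 446.3 normalized counts, against 554.9, 709.7 and 785.1 in HDAC8 1, HDAC8 2 and HDAC8 3. HDAC8 1 fell inside the EV range, so the groups overlapped. The mean was 554.0 ± 117.9 against 683.3 ± 117.4 (SD, n = 3), and the log2 fold change of 0.30 did not pass the test (SE 0.28, adjusted p = 0.606 by DESeq2). A change from 0.843-fold to 1.8-fold lay within the 95% interval, so a moderate rise was not detectable at this spread.

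ZEB2 (SIP1; ENSG00000169554; chromosome 2, 144364364 to 144521057, minus strand), a ZEB factor of differentiated melanocytes, had the highest counts of the 6. EV libraries held 7228, 6915.8 and 8230.7 normalized counts and HDAC8 libraries 4616.6, 6552.5 and 5995.8. Every HDAC8 library was under every EV library, HDAC8 1 by the widest margin. Such a separation was found in 24.0% of the 26162 genes tested, and among the 5 tested factors ZEB2 and SNAI2 showed it. The means were 7458.2 ± 687 and 5721.6 ± 996.7 (SD, n = 3). ZEB2 did not pass the test (log2 fold change -0.38, SE 0.16, DESeq2 adjusted p = 0.105), and the 95% interval of its fold ran from 0.615 to 0.956. Without HDAC8 1 the log2 fold change was -0.25 (DESeq2 adjusted p = 0.151).

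ZEB1 (ENSG00000148516; chromosome 10, 31318495 to 31529814, plus strand), the ZEB factor of invasive melanoma cells, held 1834, 2018.2 and 2503.2 normalized counts with EV and 2098.4, 2403.7 and 2522 with HDAC8. EV 3 lay inside the HDAC8 range. Means of 2118.5 ± 345.7 and 2341.4 ± 218.6 (SD, n = 3) gave 0.14 as the log2 fold change (SE 0.18, DESeq2 adjusted p = 0.75). The 95% interval of the fold ran from 0.861 to 1.42.

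TWIST1 (ENSG00000122691; chromosome 7, 19020991 to 19117636, minus strand), a basic helix-loop-helix factor of the neural crest, had 222.3, 246.6 and 228.5 normalized counts in the EV libraries. In the HDAC8 libraries it had 194.1, 320.6 and 322.3. HDAC8 1 was the lowest of all 6 libraries, and HDAC8 2 and HDAC8 3 the highest. The spread in HDAC8 (279.0 ± 73.5, SD, n = 3) was wider than in EV (232.5 ± 12.6, SD, n = 3), and the difference did not pass the test (log2 fold change 0.26, SE 0.38, DESeq2 adjusted p = 0.792). Folds from 0.713 to 2.02 lay within its 95% interval. TWIST2 (ENSG00000233608; chromosome 2, 238848032 to 238910534, plus strand) had 7 counts in EV 3 and 0 in each of the other 5 libraries. A count of 0 allows up to 3 counts, so no fold is given.

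Because a ratio within 1 library does not depend on scaling, paralogues were compared there. The log2 ratio of SNAI1 to SNAI2 counts was -0.51, 0.00 and -0.93 with EV and 2.05, 1.45 and 2.82 with HDAC8. The ratio was above 0 in all HDAC8 libraries and at or under 0 in all EV libraries. For ZEB1 over ZEB2 the values were -1.98, -1.78 and -1.72 in EV and -1.14, -1.45 and -1.25 in HDAC8, so ZEB2 counts exceeded ZEB1 counts everywhere and by less in HDAC8. Mean ratios rose by 2.59 for the SNAIL pair and by 0.55 for the ZEB pair on the log2 scale. Both pairs gave a two-sided exact permutation p of 0.1, which is the smallest that 3 libraries against 3 can give, so this test could not reach 0.05. TWIST2 was too low for a TWIST ratio.

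Levels were set side by side per kilobase of each gene's longest annotated transcript. In EV libraries the order was ZEB2 (778.3 ± 71.7 normalized counts per kilobase, SD, n = 3), ZEB1 (339.0 ± 55.3), SNAI1 (324.9 ± 69.1), SNAI2 (270.3 ± 30.3), TWIST1 (142.6 ± 7.7) and TWIST2 (1.7 ± 3). ZEB1, SNAI1 and SNAI2 were neighbours whose spreads overlapped, while ZEB2 stood above and TWIST1 below them. In HDAC8 libraries the order was ZEB2 (597.1 ± 104), SNAI1 (400.7 ± 68.8), ZEB1 (374.6 ± 35), TWIST1 (171.2 ± 45.1), SNAI2 (59.4 ± 28.2) and TWIST2 at 0. SNAI1 and ZEB1 again lay within each other's spread, and SNAI2 had gone from beside SNAI1 to below TWIST1. Taken within each library and averaged on the log2 scale, the ratio of SNAI1 to SNAI2 per kilobase was 1.19-fold in EV and 7.14-fold in HDAC8. The order rests on the length used: over all annotated exons of a gene, SNAI1 (324.9) came before ZEB2 (285.2) in EV. In HDAC8, by the same length, ZEB2 (218.8) came after SNAI1 (400.7) and ZEB1 (270.7), and SNAI2 (51.2) stayed below TWIST1 (139.7).

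**Figure D2:**
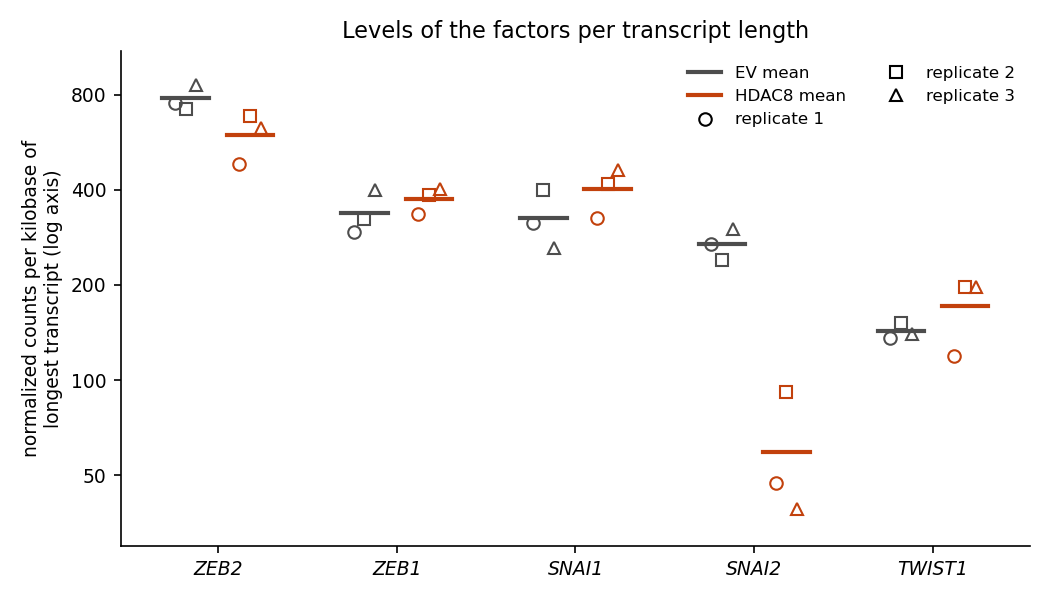
Normalized counts per kilobase of longest transcript (vertical log axis) of the 5 factors with counts in every library, one symbol a library and a bar at each group mean, EV in grey and HDAC8 in orange. SNAI2 is the gene whose groups stand furthest apart, at 270.3 in EV and 59.4 in HDAC8.

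Genes next to or overlapping the factors were read for the same libraries. Strand-specific counting was not stated, so overlapping and antisense genes cannot be fully separated from the factor they overlap. ZEB1-AS1, antisense at the ZEB1 start, had 124.8, 81.3 and 34.5 normalized counts in EV and 159.0, 156.7 and 155.7 in HDAC8. HDAC8 libraries were all higher, but the gene did not pass the test (log2 fold change 0.97, SE 0.59, DESeq2 adjusted p = 0.332). ZEB2-AS1 (-0.90, SE 0.80, DESeq2 adjusted p = 0.584), AC009951.1 inside ZEB2 (-0.47, SE 0.37, DESeq2 adjusted p = 0.503) and AC003986.2 inside TWIST1 (1.74, SE 1.22, DESeq2 adjusted p = 0.434) did not pass either, and GTDC1 beside ZEB2 had 0.22 (SE 0.42, DESeq2 adjusted p = 0.86). One neighbour was called. This was HDAC9, which encodes a class IIa histone deacetylase and is known to hold TWIST1 enhancers. By position it ends 18575 bases from the annotated end of TWIST1, a minus-strand gene, and further from the TWIST1 start. HDAC9 had 163.6, 152.2 and 191.1 normalized counts in EV and 271.1, 526.4 and 549.9 in HDAC8. It rose by 1.41 on the log2 scale (SE 0.38, DESeq2 adjusted p = 0.00357), a call that was lost without HDAC8 3 (1.24, DESeq2 adjusted p = 0.0785). Within HDAC8, TWIST1 was also lowest in HDAC8 1, with HDAC8 2 and HDAC8 3 close together (320.6 and 322.3). Within EV the orders differed, since EV 2 was the lowest library for HDAC9 and the highest for TWIST1. Whether the genes vary together was not tested.

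Epithelial genes were examined next, from a list of 30 adhesion, junction, polarity, splicing and keratin genes. Many of them are known to be repressed by these factors in carcinoma cells, and which are targets in WM164 was not tested. An adjusted p was available for 24. Of these, 4 rose (16.7%, against 5.57% of all genes), 0 were called lower and 20 were not called, with a median log2 fold change of 0.11. At an unadjusted DESeq2 p under 0.05 there were 7 higher and 2 lower, without a share of all genes to set beside them. edgeR called 0 lower and limma-voom 2. Those that rose were desmosome and tight junction genes. DSP, desmoplakin, which ties desmosomes to intermediate filaments, went from 71.3, 57.9 and 20.7 normalized counts in EV to 2463.5, 2061.6 and 2060.3 in HDAC8 (log2 fold change 5.46, SE 0.32, DESeq2 adjusted p = 1.02e-63). DSC2, a desmosomal cadherin, went from 644.9, 491.2 and 477.8 to 3246.7, 5121.8 and 4904.6 (3.04, SE 0.21, DESeq2 adjusted p = 1.84e-43). In both genes the lowest HDAC8 library was several times the highest EV library. DSG2, a desmosomal cadherin already abundant in EV, went from 7611.8, 7861.9 and 8136.2 to 15078.5, 19727.2 and 18396.8 (1.17, SE 0.14, DESeq2 adjusted p = 5.28e-15). CLDN4, a tight junction claudin, went from 132.1, 48.6 and 40.4 to 375.4, 224.3 and 349.6 (2.10, SE 0.53, DESeq2 adjusted p = 0.00118).

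The other 20 members with an adjusted p were not called. The keratin genes KRT8 and KRT18, named after their values were seen, were higher in all HDAC8 libraries but were not called, KRT18 (0.54, DESeq2 adjusted p = 0.037) for its size and KRT8 (0.81, DESeq2 adjusted p = 0.0612) for its p. CDH1, E-cadherin and the best known target of these factors, had 82.8, 39.2 and 45.3 normalized counts in EV and 29.1, 0 and 0 in HDAC8, so it was low in WM164 and not higher in any HDAC8 library. It did not pass the test (log2 fold change -2.51, SE 1.46, DESeq2 adjusted p = 0.299), but limma-voom (adjusted p = 0.0471), the replicate block (DESeq2 adjusted p = 0.0132) and the fit without HDAC8 1 (DESeq2 adjusted p = 1.56e-04) called it lower. CGN, a tight junction gene named after its values were seen, was lower in all HDAC8 libraries and was not called (-1.18, SE 0.49, DESeq2 adjusted p = 0.0989). The desmosomal plaque genes PKP2, PKP3 and JUP, named after their values were seen, were at 77.8 normalized counts or less in every library and were not called. PKP2 pointed lower (-4.185, SE 1.79, DESeq2 adjusted p = 0.109), with groups that overlapped. CGN and PKP2 were the 2 lower genes of this list at an unadjusted DESeq2 p under 0.05. EPCAM, KRT19 and RAB25 had no count in any library.

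**Figure D3:**
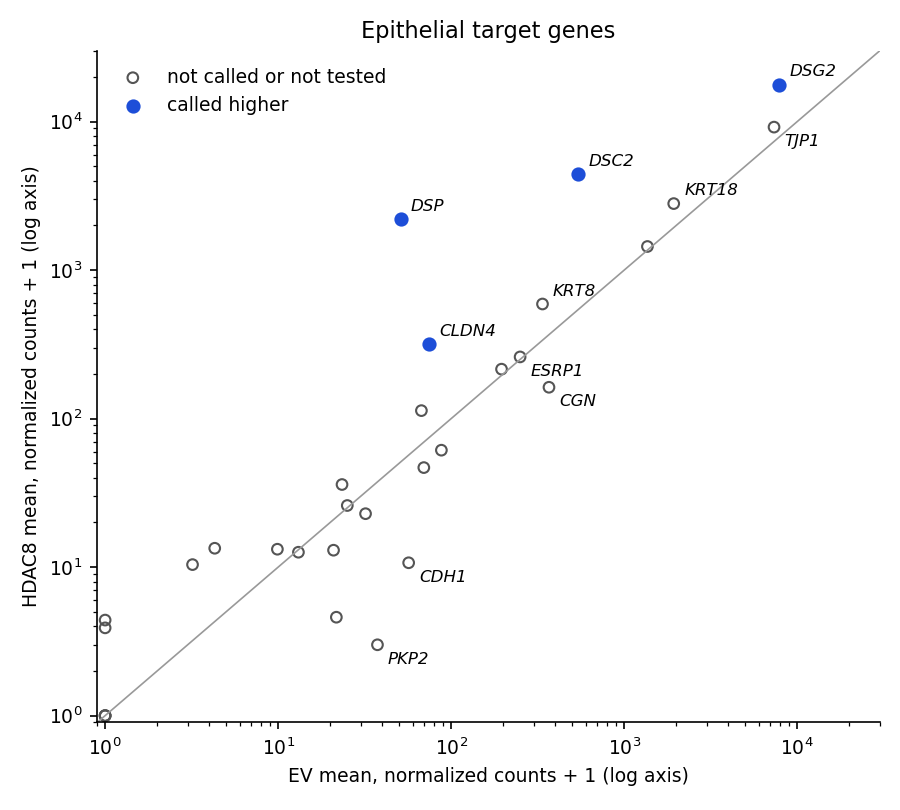
Mean normalized counts plus 1 of the 30 epithelial genes in EV (horizontal log axis) and HDAC8 (vertical log axis), each point 1 gene, with the diagonal marking equal means and filled points the 4 genes called higher. DSP and DSC2 lie furthest above the diagonal, and CDH1 and PKP2 lie below it among the genes with low counts.

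SNAIL and ZEB proteins bind the E-box CAGGTG. The 250 bases before the start of each gene were searched for it on both strands (CAGGTG or CACCTG) in RefSeq promoters of GRCh38.p14, of which 17.5% of 27302 held at least 1 copy and 2.55% at least 2. Of the 30 epithelial genes 19 were matched, and 10 of these held the motif. Among the 4 that rose, DSP and DSG2 held 2 copies each, DSC2 held 1 and CLDN4 held 0. Copies did not go with a rise throughout the list: CRB3 held 5 and PATJ and MUC1 held 2 each, and these genes were not called or not tested, while JUP, a desmosomal gene that was not called, held 0. Of the factors themselves TWIST2, ZEB1 and ZEB2 were matched, and ZEB1 held 1 copy. The 3 desmosomal promoters with the motif are printed to show where its copies lie, and their part in the rise was not tested. They are written 5′ to 3′ in lower case with the motif in capitals.
DSP, chr6:7541421-7541670, plus strand: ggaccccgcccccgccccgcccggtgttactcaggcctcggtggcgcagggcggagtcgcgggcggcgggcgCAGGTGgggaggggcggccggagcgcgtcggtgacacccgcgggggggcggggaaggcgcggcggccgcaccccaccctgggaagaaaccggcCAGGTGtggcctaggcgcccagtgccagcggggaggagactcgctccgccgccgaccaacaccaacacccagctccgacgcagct
DSC2, chr18:31102422-31102671, minus strand: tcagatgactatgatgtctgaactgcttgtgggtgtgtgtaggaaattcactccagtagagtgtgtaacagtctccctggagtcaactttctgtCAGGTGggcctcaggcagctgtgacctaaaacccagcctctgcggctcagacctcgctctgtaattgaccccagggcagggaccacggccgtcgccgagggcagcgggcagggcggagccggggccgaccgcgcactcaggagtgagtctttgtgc
DSG2, chr18:31497927-31498176, plus strand: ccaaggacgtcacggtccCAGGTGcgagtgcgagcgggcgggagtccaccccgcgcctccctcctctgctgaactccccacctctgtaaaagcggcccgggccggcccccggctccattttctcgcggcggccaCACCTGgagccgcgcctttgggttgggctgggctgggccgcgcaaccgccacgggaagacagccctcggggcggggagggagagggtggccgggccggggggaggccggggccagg
The first motif base lies 178 and 85 bases before the start in DSP, 156 in DSC2 and 232 and 116 in DSG2. A match describes the letters only, since no binding was measured in this table.

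Epithelial gatekeepers, which are transcription factors and microRNA host genes that oppose the 6 factors, were mostly too low to test. Of 12 listed, 5 had an adjusted p. Of these, 1 was called lower (20%, against 5.44% of all genes), 0 were called higher (against 5.57%) and 4 were not called. Their median log2 fold change was -0.25. No gatekeeper was higher at an unadjusted DESeq2 p under 0.05 or by edgeR or limma-voom. The called gene was ELF3, an epithelial ETS factor, named after its values were seen. It had 40.9, 24.3 and 0 normalized counts in EV and 0 in all HDAC8 libraries, so EV 3 did not differ from HDAC8 (DESeq2 adjusted p = 0.0481). edgeR, limma-voom and the replicate block did not call it, nor did fits without EV 1, EV 2, HDAC8 1, HDAC8 2 or HDAC8 3. MIR200CHG, a host gene of miR-200 microRNAs that silence ZEB1 and ZEB2, had no count in any library.

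Mesenchymal genes, which rise in epithelial-mesenchymal transition, were read from a list of 28. With 22 adjusted p-values, 5 rose (22.7%, against 5.57% of all genes), 1 fell (4.55%, against 5.44%) and 16 were not called, and the median log2 fold change was 0.09. At an unadjusted DESeq2 p under 0.05 there were 7 higher and 4 lower, without a share of all genes to set beside them. TGFBI, a matrix protein induced by TGF-β, went from 29.4, 59.8 and 30.5 normalized counts in EV to 397.6, 458.8 and 441 in HDAC8 (3.43, SE 0.43, DESeq2 adjusted p = 1.81e-13). TNC (0.90), FN1 (0.71) and VIM (0.63), which encode tenascin C, fibronectin and vimentin, rose by less, and in all of these genes the groups were separate. VIM and FN1 were already abundant in EV, with means of 111149.4 ± 7895.7 and 184193.9 ± 28752.8 normalized counts (SD, n = 3). CDH2, N-cadherin, was higher in all HDAC8 libraries but did not pass the test (0.36, SE 0.15, DESeq2 adjusted p = 0.0907). SPARC, an abundant matrix protein gene named after its values were seen, was lower in all of them (-0.46, SE 0.13, DESeq2 adjusted p = 0.00583) but under the fold change minimum. COL5A1, a fibrillar collagen, fell from 313.3 ± 58.8 to 64.7 ± 52.5 (SD, n = 3; -2.28, SE 0.66, DESeq2 adjusted p = 0.00709), and was not called without EV 2 (DESeq2 adjusted p = 0.0541) or EV 3 (DESeq2 adjusted p = 0.081).

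Dimer partners, inhibitors and cofactors of the factors were all expressed. Of 34 genes, 3 rose (8.82%, against 5.57% of all genes), 3 fell (8.82%, against 5.44%) and 28 were not called, with a median log2 fold change of -0.04. By this rule the shares were near those of all genes. At an unadjusted DESeq2 p under 0.05 there were 6 higher and 10 lower, and the share of all genes at that p was not taken. WTIP, a LIM protein of the Ajuba family that acts with SNAIL, rose from 105.6 ± 5.5 to 273.3 ± 51.3 normalized counts (SD, n = 3; 1.37, DESeq2 adjusted p = 0.0115), a call that was lost with the replicate block (DESeq2 adjusted p = 0.0508) and without EV 1, EV 3, HDAC8 1 or HDAC8 3 (DESeq2 adjusted p from 0.0559 to 0.0682). MTA2 of the NuRD complex (0.78) and the DNA methyltransferase DNMT1 (0.73) rose as well. ID1 and ID3, which sequester the E-proteins that TWIST factors pair with, fell. ID3 went from 2359.4, 2978.3 and 2219.5 normalized counts in EV to 1445.9, 1558.8 and 1470.1 in HDAC8 (-0.76, SE 0.18, DESeq2 adjusted p = 6.60e-04), and ID1 from 1042.3, 1087.1 and 980.2 to 503.6, 735.3 and 474.8 (-0.86, SE 0.25, DESeq2 adjusted p = 0.0082). For both genes every HDAC8 library was under every EV library, but ID1 was not called without EV 1, EV 2 or HDAC8 3 (DESeq2 adjusted p from 0.0645 to 0.0846). SMAD2, a transducer of TGF-β signals, fell by 0.61 on the log2 scale (DESeq2 adjusted p = 0.0222), with groups that overlapped. SMAD2 was not called with the replicate block (DESeq2 adjusted p = 0.0592) or without EV 1 (0.187), EV 3 (0.178) or HDAC8 3 (0.126), nor without HDAC8 1, where it fell by 0.47 and was under the fold change minimum. The ZEB corepressor CTBP2, named after its values were seen, was lower in all HDAC8 libraries (-0.49, SE 0.16, DESeq2 adjusted p = 0.0216) but under the fold change minimum.

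Among 35 genes that induce the factors or set their protein stability, 4 rose (11.4%, against 5.57% of all genes), 3 fell (8.57%, against 5.44%) and 28 were not called, with a median log2 fold change of -0.06. At an unadjusted DESeq2 p under 0.05 there were 9 higher and 7 lower, without a share of all genes to set beside them. JUN (1.18) and FOSL1 (1.14), subunits of AP-1, the receptor NOTCH1 (1.11) and LOXL2 (0.87), a lysyl oxidase that binds SNAIL, rose, with separate groups in each. COPS2 (-0.89), a COP9 signalosome subunit linked to SNAIL stability, PRKD1 (-0.65), a kinase that acts on SNAIL, and ATM (-0.61), a kinase that stabilises ZEB1, fell. PRKD1 dropped under the fold change minimum without HDAC8 2, and ATM without EV 1, EV 3 or HDAC8 1. FBXL14, FBXW7 and BTRC, ubiquitin ligase subunits that target SNAIL proteins, named after their values were seen, were not called (log2 fold changes -0.13, -0.23 and 0.29). Protein levels were not measured in these libraries. Of 8 related SNAIL-type and TWIST-type genes, 5 had an adjusted p. DESeq2 called 0 of them, against 11.0% of all genes, and edgeR and limma-voom also called 0. At an unadjusted DESeq2 p under 0.05, 1 was higher, and the share of all genes at that p was not taken. Each of these related genes had under 50 normalized counts on average.

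**Figure D4:**
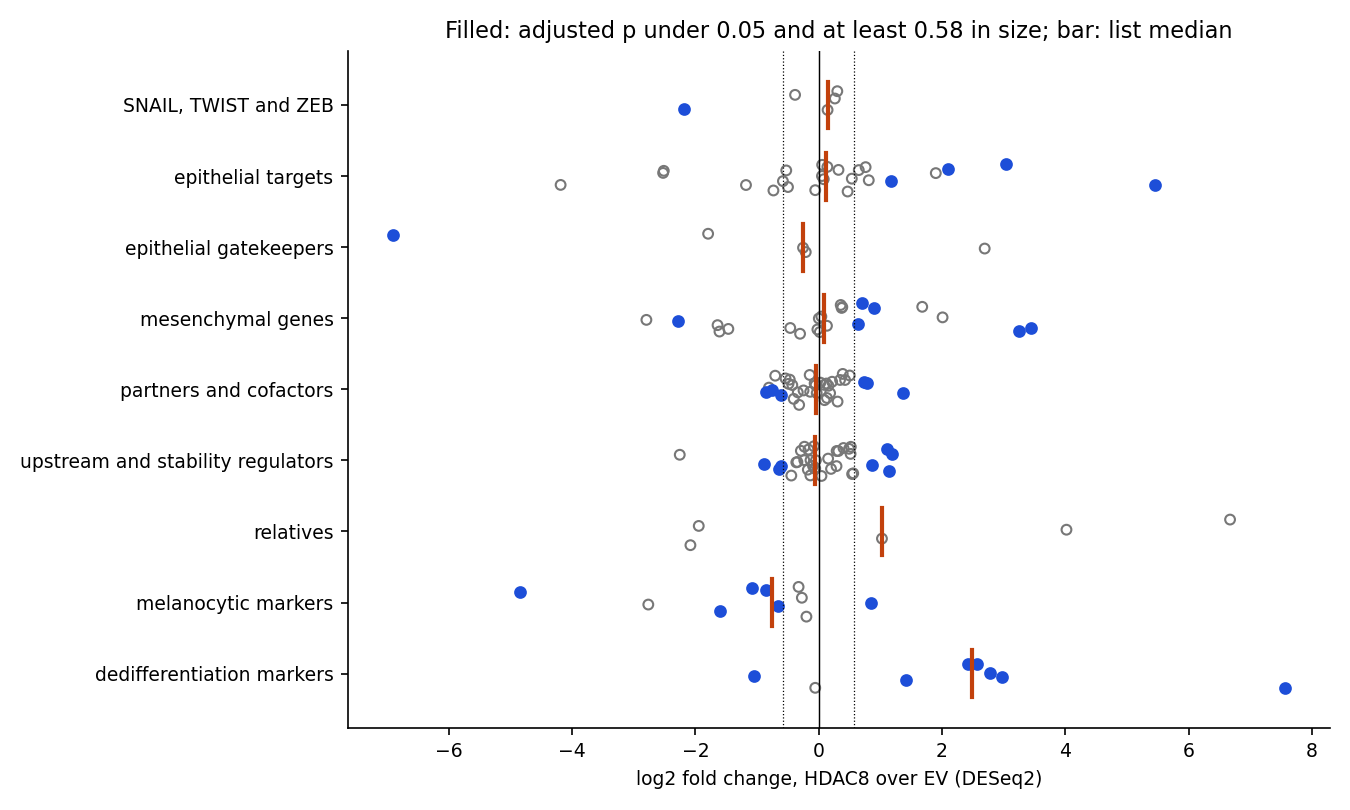
DESeq2 log2 fold change of HDAC8 over EV (horizontal axis) for the genes with an adjusted p in each list, each point 1 gene, filled where called, with dotted lines at the fold change minimum of 0.58 and an orange bar at the list median. SNAI2 is the filled point of the top line at -2.19, and medians lie near 0 for the epithelial (0.11), mesenchymal (0.09), partner (-0.04) and upstream (-0.06) lists.

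Marker lists of melanoma cell states were set beside the factors. Of 10 melanocytic genes with an adjusted p, 5 fell (50%, against 5.44% of all genes), 1 rose (10%, against 5.57%) and 4 were not called (median -0.76). MLANA (-4.84), TYR (-1.60), DCT (-1.08) and PMEL (-0.85), antigens and enzymes of pigment cells, fell, and the endothelin receptor gene EDNRB (0.85) rose. MITF, the master regulator of melanocytes, and SOX10 did not pass the test (-0.20, DESeq2 adjusted p = 0.544, and -0.33, DESeq2 adjusted p = 0.211). Of 8 genes of less differentiated states, 6 rose (75%, against 5.57% of all genes), 1 fell (12.5%, against 5.44%) and 1 was not called (median 2.49). NT5E (2.97), EGFR (2.78), NGFR (2.56) and AXL (2.42) rose the most among those with a mean of at least 50. The list was chosen with earlier results of these data known. WNT5A fell (-1.04, SE 0.31, DESeq2 adjusted p = 0.00925), and was not called without EV 2 or EV 3. SNAI2 and the pigment genes were thus lower, and ZEB1 and TWIST1 not detectably different, in the same libraries.

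Finally, genes with the pattern most like each factor over the 6 libraries were listed, by the root mean square difference of log2 values centred on each gene's mean, among 14451 genes. For SNAI2 these were the potassium channel gene KCNJ2 (0.147), SH3BGRL2 (0.202) and the desaturase gene SCD5 (0.241). KCNJ2 had 795.9, 873.2 and 987.1 normalized counts in EV and 177.9, 282.7 and 152.5 in HDAC8, with HDAC8 2 the highest of its group as for SNAI2. For ZEB2 they were BPTF (0.028), SERBP1 (0.029) and STMN1 (0.030). ZEB1 was closest to RTF1 (0.044), MSL3 (0.052) and TMEM258 (0.057), and SNAI1 to TMEM80 (0.061), NUBP1 (0.063) and SF3A2 (0.068). TWIST1 was closest to SNHG18 (0.057), PSMB2 (0.064) and ROR1 (0.069), in which HDAC8 1 was likewise the lowest library. The lists are descriptions over 6 libraries that share their scaling. A highest or lowest library shared with a factor follows from how these genes were chosen.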

How the data were processed

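RNA-seq reads of 6 WM164 libraries were trimmed with Trimmomatic, aligned with STAR and quantified with RSEM by the authors, as their processing notes and methods state. The deposited values are expected counts per gene, not scaled between libraries. An expected count divides reads among genes they could come from. Genome build, annotation and strand setting are not given in the sources used here. Expected counts were rounded to whole numbers.

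All 26162 genes whose counts summed to 10 or more were fitted in DESeq2 1.42.0 (R 4.3.3) with group as the sole term and size factors from 0.918 to 1.17. The Wald test was two-sided, with Benjamini-Hochberg adjustment over the whole table. The thresholds (0.05 and 0.58) are those of the study's methods. No adjusted p was given for 5141 genes. Intervals are at the 95% level. Positions and lengths came from GENCODE release 44 (GRCh38), in which 56558 of the gene identifiers were found. Patterns and ratios used log2 with 1 and 0.5 counts added. The floor was 3 counts, 2.57 to 3.27 normalized counts, and covers counting error only.

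The 6 genes, the lists and the E-box were chosen with earlier results of these data known. Named genes are the 6 factors, HDAC8, CDH1, CDH2, VIM, FN1, MITF, AXL, MLANA, SOX10, neighbours, up to 4 called genes per list and direction with a mean of at least 50, and the 3 closest patterns per factor. A gene named by this rule is not reported here. Alternatives were edgeR 4.0.16, limma-voom 3.58.1, other size factors, filters, a fit without mitochondrial genes, a replicate block, a test against the fold change minimum, and each library left out in turn. Fits were tested on simulated counts.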

Additional observations from a re-analysis of the deposited data

How the results depend on the processing

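SNAI2 was called lower in all 14 alternatives that refitted it, with log2 fold changes from -2.64 to -1.96 and adjusted p from 3.72e-14 to 9.82e-05, and SNAI1, TWIST1, ZEB1 and ZEB2 kept their direction and were not called in any. ZEB2 ran from -0.49 to -0.25, and reached a DESeq2 adjusted p of 0.0401 without HDAC8 replicate 2, still under the fold change minimum. Equal replicate numbers did not pair the libraries, since their deviations from the group means correlated at -0.0273, -0.0663 and 0.0399. With the replicate block SNAI2 was at -2.28 (DESeq2 adjusted p = 3.21e-07), and 1075 genes were called higher and 1078 lower. A test against the fold change minimum left 292 genes higher and 291 lower. Leaving out 1 library in turn gave 746 to 1378 genes lower, with the lowest count without EV replicate 3.

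Counts over the lists moved as follows, and the cause was not tested. The number of epithelial genes called lower was 2 with limma-voom, 2 with the replicate block, 1 where each library had to reach 10 counts, and 0 to 2 with a library left out. The 1 gatekeeper called lower became 0 with edgeR, limma-voom, the replicate block and the filter of 10 counts in every library, and 0 to 1 with a library left out. Leaving out a library also gave 0 to 2 mesenchymal genes, 1 to 5 partners and 0 to 1 dedifferentiation genes lower, and 4 to 8 upstream genes and 0 to 1 relatives higher. With lengths over all exons, 3 of the 6 factors kept their rank in EV and 3 in HDAC8. Of 43 other genes named, 33 kept their direction and call in every alternative. The other 10 were ATM, CDH1, COL5A1, HDAC9, ID1, PDGFRA, PRKD1, SMAD2, WNT5A and WTIP. With 3 libraries a group, moderate changes of SNAI1 or TWIST1 were not detectable.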

Other observations

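Among markers of other cell types, CD3E, a T cell receptor subunit named after its values were seen, was at 0 throughout EV and had 78.7, 91.1 and 50.1 normalized counts with HDAC8 (DESeq2 adjusted p = 1.10e-06), while the leukocyte marker PTPRC was at 0 in all libraries but HDAC8 1, at 2.6. PDGFRA, a growth factor receptor gene of fibroblasts, went from 113.2, 170 and 137.9 to 327.5, 235.6 and 375.7 (DESeq2 adjusted p = 0.0377), and was not called with edgeR, limma-voom or the replicate block, nor without EV 1, EV 2, EV 3, HDAC8 1 or HDAC8 3. The other fibroblast genes with an adjusted p pointed the other way without passing the test (LUM -0.60, PDGFRB -2.79 and COL1A1 -1.47, with a list median of -1.03). CD68, a lysosomal gene that many cell types express, rose by 0.92 on the log2 scale and made up most of the summed immune markers, which ran from 2357.3 to 3354.7 normalized counts in EV and from 4321.6 to 6278.9 in HDAC8.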
